A study of Mus musculus with 24 samples.

Results

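The genes described here are 46 genes of the extracellular matrix of fibroblasts: 34 that encode structural proteins (collagens, fibronectin, elastic fibre and matricellular proteins, small leucine-rich proteoglycans) and 12 that encode the enzymes and the chaperone that process collagen. The list was drawn up by gene name and role, with earlier results of these data known, and the probe brightest over all arrays stood for each gene. Of 20134 genes named on the arrays, 44 of the 46 were among them; Col6a3 and Col12a1 matched no probe. Col15a1, a basement membrane zone collagen, was well above background on 2 of 24 arrays and was not tested, so that 43 genes were tested among 14451. RNA of mouse embryonic fibroblasts (MEFs, connective tissue cells grown from embryos) had been hybridised to 24 one-colour arrays, 1 sample each. Wild-type MEFs were left untreated or given tunicamycin at 2 µg/mL for 12 h (4 arrays each). Perk-/-, Atf4-/- and eIF2α A/A MEFs, in which serine 51 of eIF2α is replaced by alanine (S51A), were measured in the same 2 states with 2 arrays each. MEFs carrying Fv2E-PERK, a PERK kinase that a dimerizing drug switches on, were untreated or given that drug, AP, for 12 h (2 arrays each). The AP dose, the promoter of the Fv2E-PERK transgene, its host line and the origin of each line are not given in the sources used here. The study's protocol names 12 or 24 h for the tunicamycin medium, and the file names give 12 h for the treated arrays and 24 h for 1 untreated Perk-/- array. The design sets out to find genes of the integrated stress response by taking away or switching on single steps of it.

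Tunicamycin blocks N-linked glycosylation, so that unfolded proteins collect in the endoplasmic reticulum (ER). The ER kinase PERK then phosphorylates eIF2α at serine 51, which lowers general translation while the transcription factor ATF4 is made. Collagens are folded in the ER, where prolyl hydroxylases (the P4ha subunits), lysyl hydroxylases (Plod) and the collagen chaperone HSP47 (Serpinh1) act on them, and BMP1 and the lysyl oxidases trim and cross-link them after secretion. Fibroblasts are the main makers of this matrix in connective tissue.

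Promoter sequence was held for 30 of the 46 genes (RefSeq, GRCm38.p6, 250 bases before the annotated start). Both strands were searched, and a gene counted where any of its windows held the letters. The GC box, letters GGGCGG, was found in 21 of 30 genes (70%) against 35.4% of all 27025 genes in the table (32.7% of 32851 windows of the same length). The CCAAT box, letters CCAAT, was found in 11 of 30 (36.7%) against 37.5% of all genes (33.8% of windows). TGATGNAA, the letters of a CHOP-ATF4 composite site, was found for Fbln5 alone (3.91% of all genes, 3.45% of windows), at 124 to 117 bases before the second of its 2 annotated starts, where the same bases read TTGCATCA, the core of an amino acid response element, on the other strand (0.918% of all genes, 0.791% of windows). The ER stress element, spelled CCAAT, 9 free bases and CCACG, was found for 0 of the 30 (0.13% of all genes, 0.113% of windows), which says only that these letters are absent from these windows. GC box and CCAAT letters overlapped in 0 of the 36 windows of these genes. The 130 bases before the start are shown for 3 genes that moved in different ways: Col1a2 (chr6:4505488-4505617, + strand), a type I collagen chain that fell with AP, Serpinh1 (chr7:99353240-99353369, - strand), which rose with tunicamycin in 3 lines, and Fbln5 (chr12:101818485-101818614, - strand), which rose with AP. Capitals mark the CCAAT box in Col1a2, the GC box in Serpinh1 and TGATGNAA in Fbln5.
Col1a2: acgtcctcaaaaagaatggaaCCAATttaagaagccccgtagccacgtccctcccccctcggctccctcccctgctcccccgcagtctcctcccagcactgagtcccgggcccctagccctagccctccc
Serpinh1: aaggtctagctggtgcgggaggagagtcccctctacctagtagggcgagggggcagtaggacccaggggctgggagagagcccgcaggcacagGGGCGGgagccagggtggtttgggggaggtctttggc
Fbln5: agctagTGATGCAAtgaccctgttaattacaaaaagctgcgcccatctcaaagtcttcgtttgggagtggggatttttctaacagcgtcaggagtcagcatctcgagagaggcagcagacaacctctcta
A match of letters is a description and no evidence of binding. Col4a1 and Col4a2, the chains of type IV collagen, start 21 bases apart and are read in opposite directions.

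Levels are log2 of the background-corrected signal over the 75th percentile of the array, a scale on which 1 unit is a doubling and on which probes of different genes cannot be set against each other. Tests were by limma, called at a Benjamini-Hochberg adjusted p under 0.05 over all 14451 genes. The arrays fell into 3 scan runs: run 1 held wild-type replicates 1 and 2 with Atf4-/-, run 2 wild-type replicates 3 and 4 with Perk-/-, and run 3 eIF2α A/A with Fv2E-PERK. File names give the wild types of both runs as separate lines while the labels name 1 wild type, so scan run and line cannot be told apart and both wild types are kept apart below. The median SD of the matrix genes between replicate arrays was 0.60 in untreated Atf4-/- and 0.20 to 0.45 in the rest of run 1, against 0.06 to 0.16 in runs 2 and 3. Untreated Atf4-/- replicates 1 and 2 differed by over 1 unit in 16 of 43 genes, replicate 1 being higher in 34. The labels do not say whether replicates were separate cultures, so p-values reflect only how far these samples lie apart, which may be technical, and the small number of arrays limits the precision. Atf4 stood at 2.79 and -0.05 in untreated Atf4-/- against 7.22 and 7.20 in its wild type, and Ddit3 (CHOP) rose by 4.74 ± 0.29 and 4.61 ± 0.13 (SE) with tunicamycin in run-1 and run-2 wild type. The Eif2ak3 (PERK) probe differed by -1.16 between untreated Perk-/- and its wild type and kept a measured level, and whether it lies in the deleted part is not given in the sources used here.

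Most structural matrix genes were lower in untreated Perk-/- MEFs than in the wild type of their run. Of 43 genes, 27 were called lower and 2 higher, with a median log2 difference of -1.34. Over all 14451 genes 54.7% were called, 32.2% lower and 22.5% higher, with a median of -0.09. The lower genes took in 22 of 31 structural genes (median -1.72) and 5 of 12 processing genes (median -0.42). All 6 matricellular genes and 5 of 7 fibrillar collagens were lower. In bulk RNA, fewer cells of a type and less RNA per cell cannot be told apart.

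The type I collagen chains, the main component of connective tissue fibres, showed the shift on every array. Col1a2 stood at 8.42 and 8.31 in untreated wild type of run 2 and at 4.0 and 3.99 in untreated Perk-/-, a log2 difference of -4.37 ± 0.21 (SE, adjusted p = 6.24e-10). Col1a1 went from 7.53 and 7.38 to 5.20 and 5.03, a difference of -2.34 ± 0.19 (SE, adjusted p = 1.45e-07). Perk-/- arrays lay below all untreated wild-type arrays for both chains. Col3a1, the type III chain of loose connective tissue, read 5.10 and 5.09 against 1.74 and 1.78, with a difference of -3.33 ± 0.33 (SE, adjusted p = 1.18e-06). Col5a2, which joins type I fibrils, read 1.67 and 1.79 against -5.24 and -5.15 and was not well above background in untreated Perk-/-. Where a probe was not above background in a group, the fold is given as a bound against the dimmest signal that counted as measured on those arrays, and Col5a2 was at least 74.3-fold lower. Col5a3, of the same family, did not pass the test (0.60 ± 0.38 SE, adjusted p = 0.201), and neither did Col4a1 (0.09 ± 0.18 SE, adjusted p = 0.713) and Col4a2 (-0.18).

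Among the glycoproteins, Smoc2, a calcium-binding matricellular protein, was at least 841-fold lower and periostin (Postn), which binds collagen and fibronectin, at least 220-fold lower in untreated Perk-/-. Smoc2 read 5.11 and 5.36 in run-2 wild type and -6.78 and -5.16 in Perk-/-, where it was not above background. Postn read 3.21 and 3.38 in wild type and -5.87 and -4.67 in Perk-/-, also not above background. Fbln5 (fibulin-5), needed for elastic fibre assembly, fell from 4.80 and 4.84 to -2.04 and -2.19, a difference of -6.93 ± 0.16 (SE, adjusted p = 4.57e-13). Thrombospondin 1 (Thbs1), a matricellular regulator of adhesion and of TGF-beta, read 4.50 and 4.48 in wild type and -0.90 and 0.25 in Perk-/- (-4.81 ± 0.31 SE, adjusted p = 1.27e-08). None of these groups overlapped. Fibronectin (Fn1) at -0.97 ± 0.17 (SE), fibrillin-1 (Fbn1) at -1.72 ± 0.22 and Sparc, a collagen-binding protein, at -0.68 ± 0.11 were lower by less. Biglycan (Bgn) at -2.27 and decorin (Dcn) at -2.47, proteoglycans that coat collagen fibrils, were also called lower. Tnc (tenascin-C, -2.10) and Col14a1 (-1.61) were called lower from 1 Perk-/- array each that was above background.

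The processing genes split in untreated Perk-/-. Lox, the founding lysyl oxidase, read 2.66 and 2.60 in wild type and -2.85 and -3.16 in Perk-/-, a difference of -5.64 ± 0.29 (SE, adjusted p = 1.3e-09). Loxl1 (-1.99) and Loxl3 (-1.61) were lower, whereas Loxl2 rose from 3.30 and 3.30 to 4.51 and 4.78 (1.35 ± 0.21 SE, adjusted p = 7.94e-05). Plod2, the hydroxylase of collagen telopeptides, was higher at 1.98 and 2.17 against 1.40 and 1.41 (0.67 ± 0.13 SE, adjusted p = 0.00051). Serpinh1 (-0.84) and Plod3 (-0.54) were lower. P4ha1 (0.28 ± 0.16, SE), P4ha2 (-0.22 ± 0.13), P4ha3, Plod1 and Bmp1 (-0.12 ± 0.13) did not pass the test. The same line differed in cell type markers: 6 of 11 epithelial markers were higher and 0 lower, and of 14 tested fibroblast markers 11 were lower and 1 higher, where 22.5% of all genes were higher and 32.2% lower. The 11 lower markers include 3 matrix genes described here (Col1a1, Col1a2 and Dcn). The higher one was Fap, the fibroblast activation protein (3.94 ± 0.32 SE, adjusted p = 1.44e-07). The summed level of the epithelial markers was 5.64 to 5.94 in untreated Perk-/- against 1.56 to 1.57 in run-2 wild type, with Krt18 at 5.57 against -0.69 and Cdh1 at -0.50 against -6.75, the last not above background. That of the fibroblast markers was 7.89 to 7.91 against 10.19 to 10.23. This sum adds the signals of all listed probes, Col1a1, Col1a2, Dcn and Lum among them, so it is not separate from the matrix genes. Called markers of other lists, up to the 3 largest each, moved both ways. Myog and Tnnt1 of muscle were higher and Acta1 lower. Vwf and Egfl7 (endothelial) and Csf1r and Coro1a (haematopoietic) were higher. Of cartilage and bone, Col2a1 and Sox9 were higher and Runx2 lower. Cebpa (adipocyte) was higher and Pparg lower, as were Stmn2, Tubb3 and Sox2 (neural). No sizes are given, since 7 of 10 muscle markers were not above background in untreated run-2 wild type. The part of all these markers was not tested. The genes named throughout are the largest changes of each class and 14 genes named in every comparison, and all 15 of their calls held without any 1 array, where 26 to 30 of 43 genes were called.

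**Figure D1:**
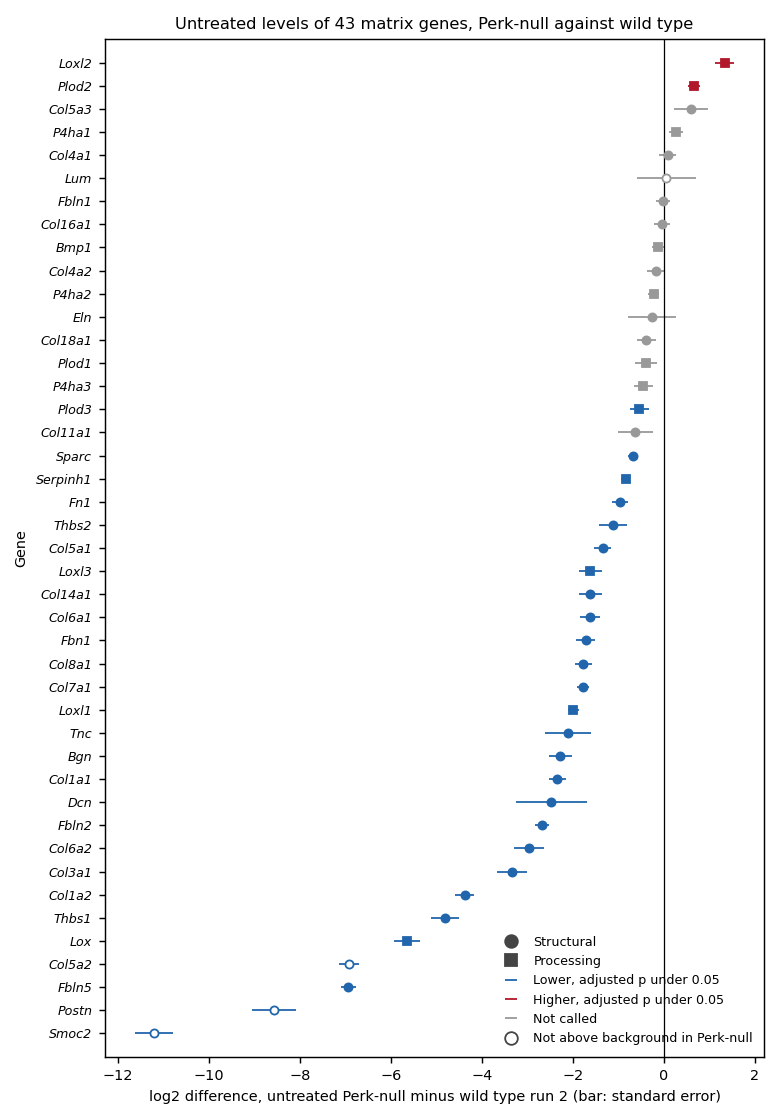
Log2 difference of each of 43 tested matrix genes between untreated Perk-/- and untreated run-2 wild type (2 arrays each), horizontal axis, with bars for the standard error; circles are structural and squares processing genes, coloured by the limma call. Open symbols mark Smoc2, Postn, Col5a2 and Lum, which were not above background in untreated Perk-/-, so that their points show no measured size; the filled points run from -6.93 for Fbln5 to 1.35 for Loxl2, and 27 genes were called lower and 2 higher.

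Untreated Atf4-/- MEFs differed from their wild type in 8 of 43 genes, 3 higher and 5 lower, with a median of 0.24. Over all genes 8.49% were called, 3.31% higher and 5.18% lower, with a median of 0.06. Postn read 3.36 and 0.45 in Atf4-/- and -2.53 and -2.44 in run-1 wild type (4.39 ± 1.04 SE, adjusted p = 0.0156). Col5a2 (3.57 and 3.46 against 0.92 and 2.14, 1.99 ± 0.47 SE, adjusted p = 0.016) and Fbn1 (5.25 and 4.40 against 2.85 and 3.08, 1.86 ± 0.46 SE, adjusted p = 0.0207) were the other higher genes. Loxl2 was lower, at 0.79 and 0.90 against 3.58 and 4.25 (-3.07 ± 0.45 SE, adjusted p = 0.000593). Thbs2, a matricellular thrombospondin, read 0.76 and -1.74 against 2.83 and 2.42 (-3.11 ± 0.66 SE, adjusted p = 0.0076). Plod2 (-1.45), Sparc (-1.05) and Col18a1 (-1.55) completed the lower genes, but the other Sparc probe, well above background on all 24 arrays, read 0.012. The groups did not overlap for these named genes, yet the Atf4-/- replicates themselves lay 2.91 apart for Postn. Col1a1 (0.41 ± 0.41, SE), Col1a2 (1.31 ± 0.45) and Col3a1 (-0.05 ± 0.72) did not pass the test, and the Col3a1 replicates stood at 6.46 and 3.19. Leaving out wild-type untreated replicate 1 gave 2 calls in place of 8, and of 7 calls among the named genes only that of Loxl2 held without each array in turn (adjusted p up to 0.225 for the others). Without array weights 19 genes were called. Same-numbered wild-type and Atf4-/- arrays of a treatment were scanned on the same day, and their deviations from the group means correlated at 0.27 untreated and 0.47 treated. With the scan day as a block, chosen after seeing the data, 13 genes were called, and a single day held too few arrays for a test.

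eIF2α A/A and Fv2E-PERK cells shared no run with wild type, so their untreated levels are given without a test. In untreated eIF2α A/A cells Col1a1 stood at 7.85 and 7.74, Col1a2 at 8.63 and 8.53 and Sparc at 9.80 and 9.88, and Col3a1 at 2.32 and 2.31. Type I chains and Sparc thus lay above every untreated wild-type array and Col3a1 below all untreated wild-type arrays. Untreated Fv2E-PERK cells held Col1a1 at 6.45 and 6.30, Col3a1 at 2.17 and 2.00, Postn at -4.91 and -6.05, Lox at -1.18 and -1.47 and Fbln5 at -0.29 and -0.24. For Postn, Lox and Fbln5 these arrays lay below every untreated wild-type, Atf4-/- and eIF2α A/A array. Col7a1, the anchoring fibril collagen, went the other way, at 4.53 and 4.41 in Fv2E-PERK and 5.39 and 5.22 in eIF2α A/A against 2.65 and 2.18 and 2.03 and 2.31 in the wild types. Genotype, line and run cannot be told apart here.

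**Figure D2:**
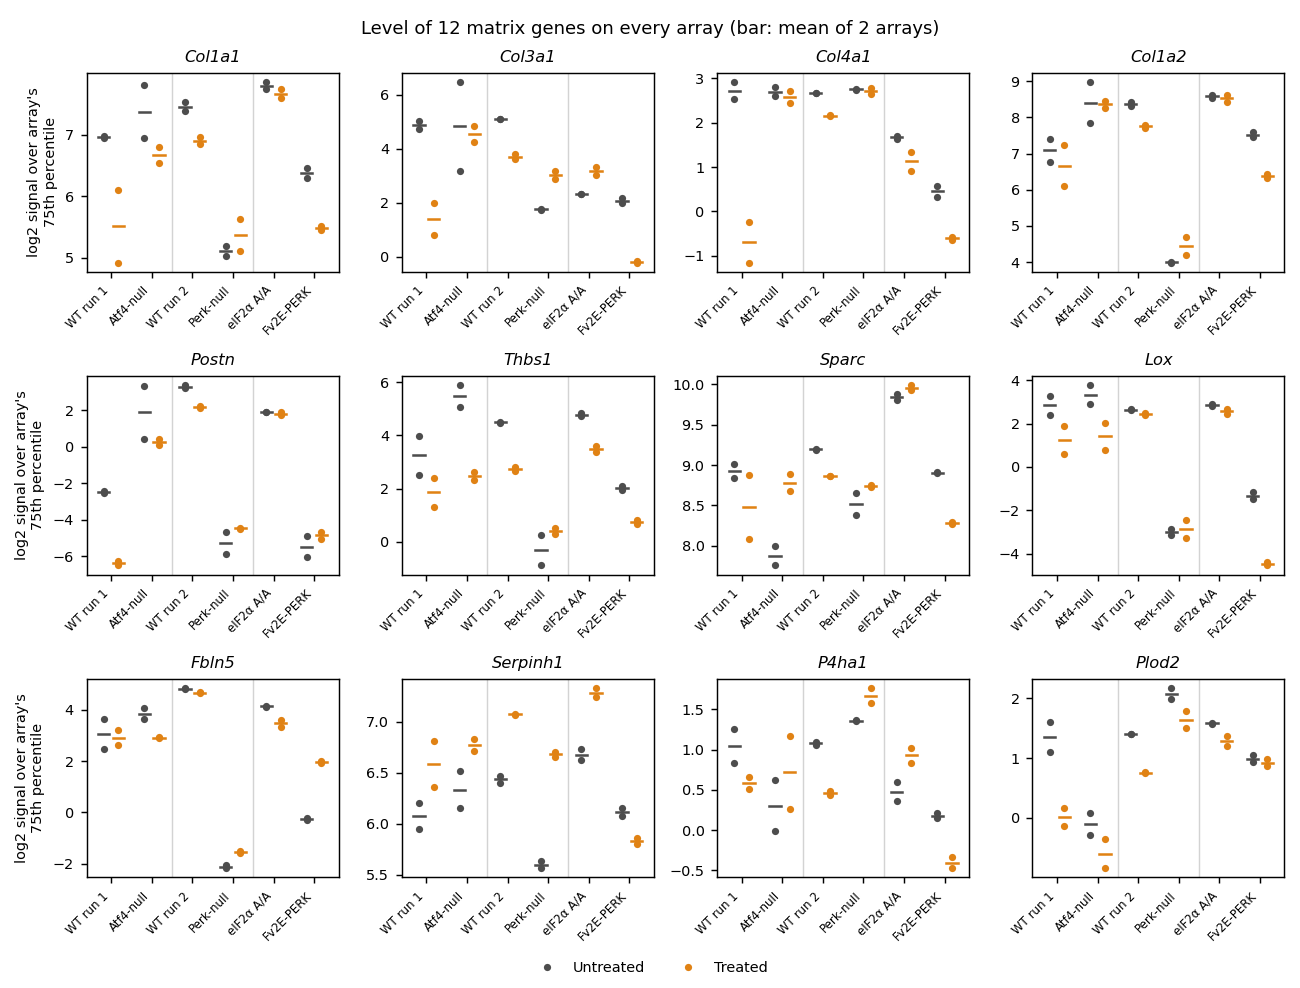
Level of 12 matrix genes on all 24 arrays, vertical axis in log2 units over the 75th percentile of the array, by line (horizontal axis, scan runs parted by grey lines), grey for untreated, orange for tunicamycin (AP in Fv2E-PERK), with a bar at the mean of 2 arrays. Untreated Perk-/- arrays sit at 4.0 and 3.99 for Col1a2 where run-2 wild type sits at 8.42 and 8.31, and Fbln5 on the AP arrays stands at 2.00 and 1.91 above -0.29 and -0.24 in untreated Fv2E-PERK.

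Tunicamycin lowered matrix genes in both wild types. In run 1, 20 of 43 genes were called lower and 0 higher (median -1.33), where 15.9% of all genes were called, 7.73% lower and 8.2% higher (median 0.10, or -0.02 after quantile normalization). In run 2, 21 were lower and 1 higher (median -0.52), where 36.1% of all genes were called, 15.4% lower and 20.7% higher (median 0.04). Collagens made up 10 of the lower genes in each run, of 16 tested. The 2 lists shared 12 genes, 60% of the run-1 list and 57.1% of the run-2 list: Col1a1, Col3a1, Col4a1, Col6a1, Col7a1, Col16a1, Fbln2, Thbs2, Loxl1, Loxl2, Plod2 and Bmp1. Lists of 20 and 21 out of 43 genes share many genes in any case, and the overlap was not tested.

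Col3a1 went from 5.01 and 4.74 to 0.82 and 1.99 in run 1 (-3.47 ± 0.72 SE, adjusted p = 0.00438) and from 5.10 and 5.09 to 3.81 and 3.61 in run 2 (-1.38 ± 0.33 SE, adjusted p = 0.00478). Col6a1, a chain of the beaded microfibrils around cells, went from 5.31 and 5.39 to 2.29 and 2.89 (-2.76 ± 0.48 SE, adjusted p = 0.00137) and from 5.99 and 5.84 to 4.02 and 3.86 (-1.97 ± 0.22 SE, adjusted p = 8.84e-06). Treated and untreated arrays did not overlap for either gene in either run. Fbln2 (fibulin-2), a basement membrane and elastic fibre glycoprotein, read -2.45 ± 0.35 (SE, adjusted p = 0.00028) in run 1 and -2.07 ± 0.16 (SE, adjusted p = 2.69e-07) in run 2. Col1a1 read -1.45 ± 0.41 (SE, adjusted p = 0.0261) in run 1 and -0.55 ± 0.19 (SE, adjusted p = 0.0339) in run 2. Loxl2 read -3.15 ± 0.45 (SE, adjusted p = 0.000296) and -1.25 ± 0.21 (SE, adjusted p = 0.000315). Thbs1 was called in run 2 (-1.75 ± 0.31 SE, adjusted p = 0.000466) and not in run 1 (-1.39 ± 0.66 SE, adjusted p = 0.187), but the difference of the responses, 0.36, did not pass (adjusted p = 0.879). Col11a1, a minor fibrillar chain, was likewise called in run 2 alone (-2.17 ± 0.38 SE, adjusted p = 0.000462), with a difference between runs of 2.06 (adjusted p = 0.289).

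The wild types differed in 6 genes when the responses themselves were compared, all lower in run 1 (over all genes 4.02% were called, 2.54% lower and 1.48% higher). Col4a1 fell in run 1 from 2.91 and 2.54 to -1.15 and -0.23 and in run 2 from 2.66 and 2.67 to 2.16 and 2.15, a difference of responses of -2.91 ± 0.43 (SE, adjusted p = 0.00198). Its head-to-head partner Col4a2 went from 2.83 and 2.34 to -0.91 and -0.49 in run 1 and from 2.74 and 2.68 to 2.54 and 2.44 in run 2 (-3.07 ± 0.45 SE, adjusted p = 0.00198). Lumican (Lum), a corneal and skin proteoglycan, was above background only in untreated run-1 wild type (1.59 and 0.62) and on 3 of 4 Atf4-/- arrays. It was at least 57.9-fold lower after tunicamycin in run-1 wild type and was not above background on any run-2 array, so that run 2 gives no measured response for it. Thbs2 (-3.43), Fbln1 (-1.85) and Loxl2 (-1.90) were the others. Col4a1 and Col4a2 kept their calls without any 1 array, whereas the count was 3 without untreated replicate 1 and 2 without tunicamycin replicate 1, and Lum, Thbs2 and Loxl2 lost their calls without at least 1 array (adjusted p up to 0.314). Postn, at least 4.82-fold lower in run 1 (-2.53 and -2.44 untreated), read -1.10 ± 0.48 (SE) in run 2 and did not pass there.

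Serpinh1 alone was called higher in either wild type, from 6.47 and 6.40 to 7.07 and 7.08 in run 2 (0.64 ± 0.10 SE, adjusted p = 0.000119). It read 0.51 ± 0.21 (SE) in run 1, short of the threshold. Of the hydroxylases, P4ha1 read -0.46 ± 0.33 (SE, not called) in run 1 and -0.62 ± 0.16 (SE, adjusted p = 0.00629) in run 2. P4ha3 read -0.09 in run 1 and -0.72 in run 2 on its brightest probe. Its other probe, well above background on all 24 arrays, read -2.74 and -1.79, so the size for P4ha3 depends on the probe. P4ha2 read 0.04 and -0.11, neither called, and Plod2 -1.33 and -0.65, both called. Bmp1 was lower in both runs (-1.16 and -0.52). Its less bright probes, well above background on all 24 arrays, matched the sign of the brightest in 6 and 5 of 8 comparisons. They differed from it by up to 0.56 and 0.89, so every Bmp1 call rests on its brightest probe. Fn1 (-0.60 ± 0.37 and 0.30 ± 0.17), Fbn1 (-0.97 ± 0.46 and 0.18 ± 0.22) and Lox (-1.60 ± 0.62 and -0.20 ± 0.29, SE) did not pass in either. Leaving out wild-type tunicamycin replicate 1, untreated replicate 2 or untreated replicate 1 brought the run-1 lower count to 9, 10 or 12, and leaving out tunicamycin replicate 4 brought that of run 2 to 13. Among the named genes, the calls of Postn, Col5a3, Plod2, Col1a1, Col3a1 and Bmp1 in run 1 (adjusted p up to 0.27) and Col1a1, Col1a2, Col3a1, Sparc, P4ha1 and Bmp1 in run 2 (up to 0.21) ended without at least 1 array. Run 2 gave 11 lower genes without array weights. Of 14 fibroblast markers 6 were called lower and 1 higher in each run, against 7.73% and 15.4% of all genes lower and 8.2% and 20.7% higher, with a summed level of 9.64 to 9.72 untreated and 9.04 to 9.40 treated in run 1 and 10.19 to 10.23 and 9.43 to 9.44 in run 2, and their part was not tested. The lower markers include matrix genes described here, Col1a1 and Lum in run 1 and Col1a1 and Col1a2 in run 2. The summed level takes in Col1a1, Col1a2, Dcn and Lum and is not separate from them.

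In Perk-/- cells tunicamycin raised 3 of 43 genes and lowered 2 (median 0.02), a share near that over all genes, where 12.5% of all genes were called, 8.12% higher and 4.35% lower. Hspa5 (BiP), the ER chaperone that marks the unfolded protein response, still rose by 1.25 ± 0.09 (SE). Col3a1 rose from 1.74 and 1.78 to 2.89 and 3.16 (1.27 ± 0.33 SE, adjusted p = 0.0234), Serpinh1 from 5.56 and 5.64 to 6.66 and 6.71 (1.08 ± 0.10 SE, adjusted p = 7.8e-06) and Fbln5 from -2.04 and -2.19 to -1.59 and -1.49 (0.57 ± 0.16 SE, adjusted p = 0.0295). Fbln2 fell, from 1.99 and 2.22 to 0.77 and 0.80 (-1.32 ± 0.16 SE, adjusted p = 0.000115), and so did Plod2 (-0.43 ± 0.13 SE, adjusted p = 0.0438). Groups did not overlap for these 5 genes. Col1a1 (0.26 ± 0.19), Col1a2 (0.45 ± 0.21), Sparc (0.22 ± 0.11), Thbs1 (0.73 ± 0.31), P4ha1 (0.31 ± 0.16), P4ha2 (0.24 ± 0.13), Bmp1 (-0.04 ± 0.13), Fn1 (-0.08 ± 0.17), Fbn1 (0.35 ± 0.22), Lox (0.14 ± 0.29) and Postn (0.81 ± 0.48, SE) did not pass. A fall could not be measured for Postn, Col5a2 and Smoc2, which were not above background in untreated Perk-/-. Leaving out tunicamycin replicate 2 left 1 higher call, and leaving out tunicamycin replicate 1 gave 5. The lower calls numbered 1 without untreated replicate 2 or tunicamycin replicate 1. Fbln2 and Serpinh1 kept their calls without any 1 array, and Col3a1, Fbln5 and Plod2 did not (adjusted p up to 0.182).

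The difference from the response of run-2 wild type was tested directly. It was called for 17 of 43 genes, in all 17 toward higher values in Perk-/- (median 0.55), where 21.1% of all genes were called, 10.3% in that direction and 10.8% in the other (median -0.03). Collagens took 8 of the 17: Col11a1 (2.89 ± 0.54 SE, adjusted p = 0.00154), Col3a1 (2.65 ± 0.47 SE, adjusted p = 0.00109), Col6a2 (1.75), Col6a1 (1.56), Col8a1 (1.15), Col1a2 (1.07), Col7a1 (0.90) and Col1a1 (0.81). Thbs1 went from -0.90 and 0.25 to 0.28 and 0.53 in Perk-/- and from 4.50 and 4.48 to 2.68 and 2.80 in wild type, a difference of 2.48 ± 0.44 (SE, adjusted p = 0.000981). Loxl3 (2.08 ± 0.35 SE, adjusted p = 0.000763), Loxl2 (1.00), Loxl1 (0.82), P4ha1 (0.93 ± 0.22 SE, adjusted p = 0.00762) and Serpinh1 (0.44) were the 5 processing genes, and Fbln2 (0.75), Fbln5 (0.72) and Sparc (0.55) the other structural ones. The untreated levels of these genes in Perk-/- had been called lower for all but Loxl2, P4ha1 and Col11a1. The count was 8 without wild-type tunicamycin replicate 3 and 9 without untreated replicate 3, untreated replicate 4 or tunicamycin replicate 4. It was 5 without array weights, and Col3a1, Col11a1, Thbs1 and Loxl3 kept their calls without any 1 array, while 7 other calls among the named genes did not (adjusted p up to 0.181).

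In Atf4-/- cells tunicamycin lowered 5 of 43 genes and raised 1 (median -0.27), where 9.83% of all genes were called, 6.5% lower and 3.33% higher (median -0.04). Thbs1 read 5.08 and 5.89 untreated and 2.33 and 2.62 treated (-3.01 ± 0.66 SE, adjusted p = 0.0111). Col8a1, a short-chain network collagen, read 0.94 and 1.42 and -1.19 and -0.91 (-2.23 ± 0.40 SE, adjusted p = 0.00344). Fbln2 (-1.57 ± 0.35 SE, adjusted p = 0.0119), Col7a1 (-1.48 ± 0.28 SE, adjusted p = 0.00456) and Loxl1 (-1.08 ± 0.27 SE, adjusted p = 0.0204) were the other lower genes. Sparc rose from 7.75 and 8.0 to 8.88 and 8.67 (0.90 ± 0.24 SE, adjusted p = 0.0311), but its other probe, well above background on all 24 arrays, read -0.36, and the mean of both probes was not called (0 genes higher). Col3a1 (-0.27 ± 0.72), Col1a1 (-0.70 ± 0.41), Col1a2 (-0.05 ± 0.45), Postn (-1.63 ± 1.04), Fn1 (-0.02 ± 0.37), Fbn1 (-0.87 ± 0.46), Lox (-1.92 ± 0.62), Serpinh1 (0.44 ± 0.21), P4ha1 (0.41 ± 0.33), P4ha2 (-0.06 ± 0.27), Plod2 (-0.50 ± 0.28) and Bmp1 (0.17 ± 0.29, SE) did not pass. The median was -0.89 against untreated replicate 1 alone and 0.19 against replicate 2 alone, and quantile normalization moved it to 0.00 and the share of higher calls among all called genes from 33.9% to 45.9%. The lower count was 1, 2 or 3 without tunicamycin replicate 1, tunicamycin replicate 2 or untreated replicate 1, and all 6 calls ended without at least 1 array (adjusted p up to 0.219).

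Set against run-1 wild type, the Atf4-/- response was higher in 9 of 43 genes and lower in 0 (median 0.75), where 11.8% of all genes were called, 5.13% higher and 6.67% lower. The median of all genes was -0.14 on this scale and 0.00 after quantile normalization, which also moved the share of higher calls among all called genes from 43.5% to 58.7%. Col4a1 stayed at 2.60 and 2.80 untreated and 2.71 and 2.44 treated where wild type fell, a difference of 3.29 ± 0.55 (SE, adjusted p = 0.00192), and Col4a2 went the same way (3.38 ± 0.58 SE, adjusted p = 0.00224). Col5a3 (4.84 ± 1.15 SE, adjusted p = 0.0149), Thbs2 (3.75 ± 0.94 SE, adjusted p = 0.0191), Fbln1 (2.58), Col6a1 (2.43), Sparc (1.35) Bmp1 (1.33 ± 0.40 SE, adjusted p = 0.0467) and Lum made up the rest. No size is given for Lum, which was not above background in treated run-1 wild type or on 1 untreated Atf4-/- array. Lum was tested only because it was above background on the treated Atf4-/- arrays, which enter this comparison, so its call is no support. Col3a1, at 3.20 ± 1.02 (SE, adjusted p = 0.0562), fell short. The count was 3 without wild-type tunicamycin replicate 1 or Atf4-/- tunicamycin replicate 1, 4 without wild-type untreated replicate 1 or Atf4-/- tunicamycin replicate 2, and 5 without Atf4-/- untreated replicate 2. Of 6 calls among the named genes, Col4a2 alone held without each array in turn (adjusted p up to 0.186 for the others), and a fit blocked on replicate number called 5 genes.

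In eIF2α A/A cells, whose eIF2α cannot be phosphorylated at serine 51, tunicamycin lowered 15 of 43 genes and raised 3 (median -0.21), where 39.1% of all genes were called, 18.7% lower and 20.5% higher (median 0.01). Fbln2 showed the largest change of the 43, from 6.31 and 6.30 to 2.61 and 2.61 (-3.70 ± 0.11 SE, adjusted p = 3.02e-11). Smoc2 went from 3.94 and 4.01 to 2.20 and 2.40 (-1.68 ± 0.29 SE, adjusted p = 0.000417) and Thbs1 from 4.71 and 4.85 to 3.36 and 3.61 (-1.30 ± 0.21 SE, adjusted p = 0.000255). Fn1 (-0.62 ± 0.12 SE, adjusted p = 0.00092) and Fbn1 (-0.81 ± 0.15 SE, adjusted p = 0.000629) were lower here. The 3 higher genes were Col3a1 (2.32 and 2.31 to 3.04 and 3.32, 0.86 ± 0.23 SE, adjusted p = 0.00807), Serpinh1 (6.62 and 6.73 to 7.24 and 7.33, 0.61 ± 0.07 SE, adjusted p = 6.69e-06) and P4ha1 (0.45 ± 0.11 SE, adjusted p = 0.00378), whose other probe, well above background on all 24 arrays, read 0.0025. No group overlapped for these genes. Loxl3 (-0.57) and Plod2 (-0.29) were the lower processing genes. Col1a1 (-0.13 ± 0.13), Col1a2 (-0.05 ± 0.14), Sparc (0.12 ± 0.08), Postn (-0.08 ± 0.33), Lox (-0.29 ± 0.20), P4ha2 (0.14 ± 0.09) and Bmp1 (-0.21 ± 0.09, SE) did not pass. The lower count was 8 without tunicamycin replicate 1 and 3 without array weights, and 1 higher call was left without tunicamycin replicate 2. Col3a1, Loxl3, P4ha1 and Plod2 lost their calls without at least 1 array (adjusted p up to 0.17).

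Compared with the mean response of both wild types, eIF2α A/A was higher in 20 genes and lower in 1 (median 0.64), where 34.3% of all genes were called, 15.8% higher and 18.4% lower (median -0.06), and the share of higher calls among all called genes was 46.3% here and 58.2% after quantile normalization. Col3a1 (3.29 ± 0.46 SE, adjusted p = 8.76e-05), Thbs2 (2.85 ± 0.42 SE, adjusted p = 0.000148), Postn (2.42 ± 0.66 SE, adjusted p = 0.0115) and Loxl2 (2.34 ± 0.29 SE, adjusted p = 3.03e-05) led the higher genes. The wild-type responses themselves differed for Thbs2 (-3.43, run 1 minus run 2) and Loxl2 (-1.90), so these sizes depend on which wild type is used. Loxl2 read -3.15 in run-1 and -1.25 in run-2 wild type and 0.14 in eIF2α A/A. Col1a1 (0.87 ± 0.26 SE, adjusted p = 0.0178), Sparc (0.51), Loxl3 (1.1), P4ha1 (0.99 ± 0.21 SE, adjusted p = 0.00246), Plod2 (0.70) and Bmp1 (0.64) were among them. Lum was also called, but it was above background only in untreated run-1 wild type of these groups, so no size is given. Postn was not above background in treated run-1 wild type. Fbln2 was the lower gene (-1.44 ± 0.22 SE, adjusted p = 0.000211). Col1a2 (0.46 ± 0.28), Serpinh1 (0.04 ± 0.13), Thbs1 (0.27 ± 0.42), Fn1 (-0.47 ± 0.24), Fbn1 (-0.42 ± 0.30), Lox (0.61 ± 0.39) and P4ha2 (0.18 ± 0.17, SE) did not pass. The wild types and this line were scanned in different runs, so run and genotype cannot be told apart. Without array weights 12 genes were called, and with 1 wild-type response for both runs 9. Loxl3, Col1a1, Sparc, Plod2 and Bmp1 lost their calls without at least 1 array (adjusted p up to 0.134).

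**Figure D3:**
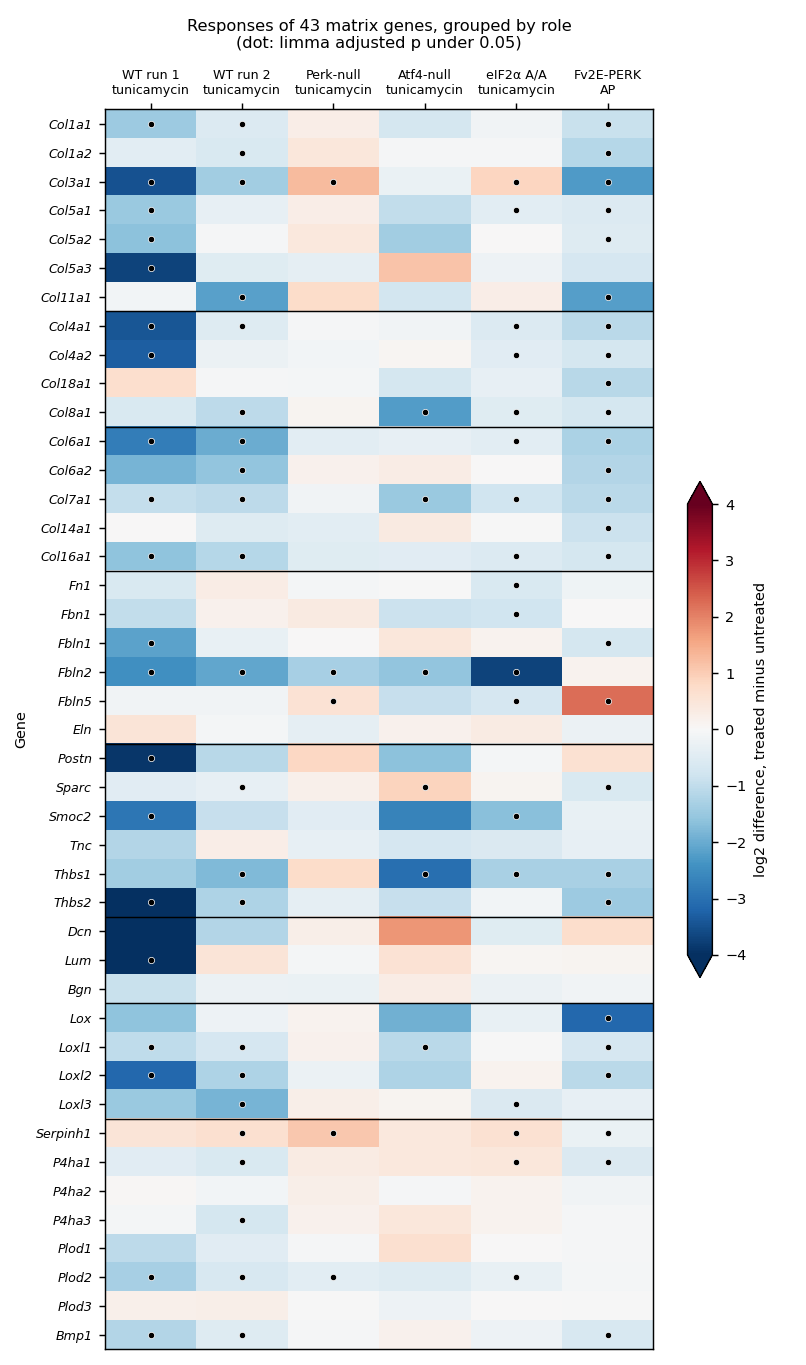
Log2 difference, treated minus untreated, of 43 tested matrix genes (rows, grouped by role) in 6 responses (columns), blue for lower and red for higher on a scale that saturates at -4 and 4, with a dot where limma called the gene at an adjusted p under 0.05. Both wild-type columns and the AP column hold mostly blue, with 20, 21 and 25 genes called lower, the Perk-/- column 2, and Fbln2 is blue in all columns but that of AP.

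AP, which switches on PERK without tunicamycin, lowered 25 of 43 genes and raised 1 (median -0.62), where 38.7% of all genes were called, 13.9% lower and 24.9% higher (median 0.08). Of 16 collagens tested, 15 were called lower, and Col5a3 did not pass (-0.66 ± 0.26 SE, adjusted p = 0.0575). Hspa5 rose by 0.26 ± 0.06 (SE) and Ddit3 by 2.32 ± 0.09. Col3a1 went from 2.17 and 2.00 to -0.14 and -0.21 (-2.26 ± 0.23 SE, adjusted p = 4.8e-06), Col1a2 from 7.60 and 7.44 to 6.44 and 6.31 (-1.14 ± 0.14 SE, adjusted p = 2.92e-05) and Col1a1 from 6.45 and 6.30 to 5.52 and 5.46 (-0.89 ± 0.13 SE, adjusted p = 0.000116). Col11a1 was at least 4.02-fold lower, from -2.77 and -2.60 to values not well above background. In all of these the treated arrays lay below the untreated ones. Thbs2 (-1.46 ± 0.21 SE, adjusted p = 0.000106), Thbs1 (-1.31 ± 0.21 SE, adjusted p = 0.000269) and Sparc (-0.62 ± 0.08 SE, adjusted p = 3.18e-05) were lower. Fn1 (-0.17 ± 0.12), Fbn1 (0.03 ± 0.15) and Postn (0.62 ± 0.33, SE, not above background on these arrays) did not pass. Of 14 fibroblast markers 9 were lower, Col1a1 and Col1a2 among them, and their part in the result was not tested. The summed level of the markers was 9.36 to 9.38 untreated and 8.27 to 8.32 with AP. It takes in Col1a1, Col1a2, Dcn and Lum and is not separate from them.

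Fbln5 was the 1 gene that rose with AP, from -0.29 and -0.24 to 2.00 and 1.91 (2.22 ± 0.11 SE, adjusted p = 4.67e-09). With tunicamycin it read -0.14 ± 0.34 and -0.15 ± 0.16 in the wild types, neither called, and -0.66 ± 0.11 (SE, adjusted p = 0.000289) in eIF2α A/A. In Atf4-/- it read -0.93, not called. In Perk-/- tunicamycin raised it as well, by 0.57, a call that ended without at least 1 array. The other probe of Fbln5 was well above background on 0 arrays and checks nothing. Among the processing genes Lox was at least 8.88-fold lower with AP, from -1.18 and -1.47 to -4.55 and -4.41, the latter not well above background. Loxl2 (-1.09 ± 0.14 SE, adjusted p = 4.83e-05), Loxl1 (-0.66), Bmp1 (-0.63 ± 0.09 SE, adjusted p = 0.000102), P4ha1 (-0.58 ± 0.11 SE, adjusted p = 0.000692) and Serpinh1 (-0.28 ± 0.07 SE, adjusted p = 0.00388) were lower too. Another of the 3 Bmp1 probes read -0.069. P4ha2 (-0.13 ± 0.09), Plod2 (-0.06 ± 0.09, SE), P4ha3, Plod1, Plod3 and Loxl3 did not pass. Serpinh1 thus read -0.28 with AP beside 0.64, 1.08 and 0.61 with tunicamycin in run-2 wild type, Perk-/- and eIF2α A/A. AP and tunicamycin were given to different lines, and these values were not tested against each other. The list lowered by AP held 17 of the 21 genes lowered in run-2 wild type (81.0%, and 68% of the AP list) and 14 of the 20 of run 1 (70%, and 56% of the AP list). Since AP lowered 25 of all 43 genes, many would be shared with any list of these genes, and the overlap was not tested. The AP and wild-type groups share no arrays. Of 13 calls among the named genes, 12 held without each array in turn and that of Serpinh1 ended without AP replicate 2 (adjusted p = 0.0518). The higher count was 2 without untreated replicate 1, and the lower count was 4 without array weights, a fit that gives all runs 1 spread.

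Structural genes had the lower median in 5 of the 6 responses. The 31 structural genes had medians of -1.49 and -0.51 with tunicamycin in run-1 and run-2 wild type, and the 12 processing genes -1.03 and -0.57. In eIF2α A/A the structural median was -0.33 with 13 lower and 1 higher, against 0.00 with 2 lower and 2 higher for processing genes. With AP the medians were -0.69 and -0.30, and in Perk-/- -0.04 and 0.15. The difference between the classes was not tested. Within the processing class the 4 lysyl oxidases, which act outside the cell, had a median of -0.95 in run-2 wild type and -0.88 with AP, and the 8 genes of hydroxylation, chaperoning and trimming -0.49 and -0.10. P4ha2, Plod1, Plod3, Tnc, Dcn, Bgn and elastin (Eln, above background on 11 of 24 arrays) were called in none of the 6 responses. Decorin nevertheless went from 5.64 and 4.78 to 0.46 and 0.65 in run-1 wild type, groups that do not overlap (-4.66 ± 1.69 SE, adjusted p = 0.0786).

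**Figure D4:**
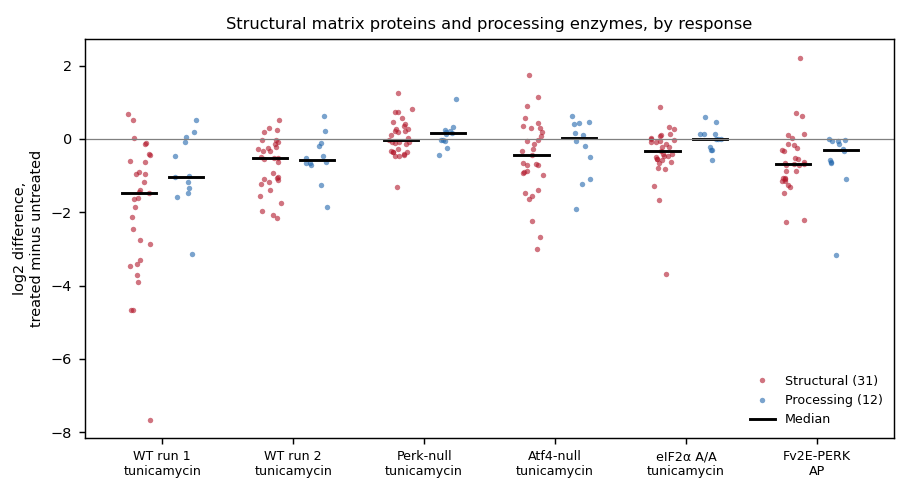
Log2 difference, treated minus untreated (vertical axis), of 31 structural (red) and 12 processing genes (blue) in 6 responses, 1 point a gene and a black bar at the median. Structural medians are -1.49, -0.51, -0.04, -0.45, -0.33 and -0.69 from left to right and processing medians -1.03, -0.57, 0.15, 0.02, 0.00 and -0.30. The lowest point is Lum in run-1 wild type, which was not above background after tunicamycin.

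Other genes of the pathway were listed by function. Of 33 tested partners of collagen folding, secretion and trimming, 11 were higher and 9 lower in run-2 wild type, 13 higher and 1 lower in Perk-/-, and 2 higher and 8 lower with AP. Over all genes 20.7% were higher and 15.4% lower in run-2 wild type, 8.12% and 4.35% in Perk-/-, and 24.9% and 13.9% with AP. The higher ones were led by the ER chaperones Hsp90b1 (2.32 ± 0.13 in run-2 wild type and 1.32 ± 0.13 in Perk-/-, SE) and Hspa5. The lower ones held Adamts2, the procollagen N-proteinase, at -4.48 ± 0.57 (SE, adjusted p = 0.000115) in run-1 wild type and -1.54 ± 0.18 (SE, adjusted p = 1.76e-05) with AP. Creb3l1, an ER-bound activator of collagen genes, was lower with AP (-0.98 ± 0.13 SE, adjusted p = 6.62e-05). Of 24 tested genes of the TGF-beta pathway, the main inducer of matrix genes, 9 were lower and 1 higher in run-1 wild type, 11 and 2 in run-2 wild type, 4 and 3 in Perk-/-, 9 and 0 in Atf4-/-, 10 and 3 in eIF2α A/A and 13 and 3 with AP. The shares over all genes, lower and then higher, were 7.73% and 8.2% in run-1 wild type, 15.4% and 20.7% in run-2 wild type, 4.35% and 8.12% in Perk-/-, 6.5% and 3.33% in Atf4-/-, 18.7% and 20.5% in eIF2α A/A and 13.9% and 24.9% with AP. Tgfbi, a collagen-binding protein named for its induction by TGF-beta, read -4.0, -3.00 and -1.51 in run-1 wild type, run-2 wild type and with AP.

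Of 14 tested laminin, nidogen and perlecan genes, 1 was lower and 5 higher in run-2 wild type, and 5 were lower and 0 higher with AP, beside 15.4% lower and 20.7% higher over all genes in run-2 wild type and 13.9% and 24.9% with AP. Nid1, which links laminin to type IV collagen, was lower in run-2 wild type (-2.16 ± 0.18 SE, adjusted p = 5.33e-07) and eIF2α A/A (-1.54 ± 0.12 SE, adjusted p = 4.35e-07). It was also lower in run-1 wild type (-1.92 ± 0.39 SE, adjusted p = 0.00386) and Perk-/- (-1.02 ± 0.18 SE, adjusted p = 0.00195). Lamb1 (1.37 ± 0.14 SE, adjusted p = 4.56e-06) and Lama1 were among the 5 higher genes of run-2 wild type. Lama1 was higher in Perk-/- (1.57) and eIF2α A/A (1.01) as well. Of 17 tested integrin and collagen receptor genes, 6 were lower and 1 higher in run-2 wild type and 6 and 1 with AP, beside those same shares over all genes. Itga11, the collagen receptor subunit of fibroblasts, read -4.02, -3.17 and -1.51 in run-1 wild type, run-2 wild type and with AP, all called. In untreated Perk-/- 22 of the 33 folding partners, 16 of the 24 TGF-beta pathway genes and 6 of the 17 receptors were lower, beside 32.2% of all genes, so that the receptors lay near the share over all genes. The largest called changes of the laminin list there went in different directions, with Lama1 (3.57) and Lama5 (2.49) higher and Lama4 (-2.69) lower. Acta2 of the TGF-beta list, the smooth muscle actin of activated fibroblasts, read -6.89 ± 0.13 (SE, adjusted p = 8.03e-14).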

How the data were processed

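RNA of mouse embryonic fibroblasts was labelled with Cy3 and hybridised to 24 one-colour Agilent arrays of 55681 probes. The deposited intensity values are the background-corrected processed signals of Agilent Feature Extraction 10.7.1.1 (protocol GE1_107_Sep09), per the file headers. The authors' deposited log2 table matched log2 of those signals over the array's 75th percentile within 0.001 for 99.3% of values after its centring was allowed for, and was an alternative. Its column medians run from -0.32 to 0.49. The 75th percentile of intensity lay between 111 and 418, the deposited flags put 45.1% to 58.2% of probes well above background, and 0 spots were saturated.

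Values are log2 of the processed signal less each array's 75th percentile. Probes were named through their accessions (26568 named, 29113 not, 57 with conflicting names left out), with the brightest probe for each gene. A gene was tested where it was well above background on all arrays of at least 1 group, giving 14451 of 20134 genes. limma 3.58.1 in R 4.3.3 (statmod 1.5.0) fitted 12 means, 1 for each group and scan run, with array weights by run of 0.28, 1.29 and 2.76 and 12 residual degrees of freedom, and Benjamini-Hochberg adjustment over all genes in each of 12 contrasts. The fit was tested on simulated data. Alternatives were quantile normalization, normexp, no filter, mean of probes, no weights, single-run fits, a run term, blocks and each array left out. Genes named are, per comparison, up to 4 structural and 2 processing genes with the largest called change, 14 genes named throughout, leading genes of other lists, and genes that account for a count. The members and lists were chosen with earlier results of these data known. Untreated eIF2α A/A and Fv2E-PERK levels were not tested, since no wild type shares their run.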

Additional observations from a re-analysis of the deposited data

Results flagged for a closer look

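In 6 cases 1 wild-type array lay far from the other 3 of its treatment, by a gap past Dixon's critical value. Tunicamycin replicate 1 lay below the others for Thbs2, a matricellular protein (-3.05 against -1.02 to -0.69), fibrillin-1 gene Fbn1 (1.51 against 2.48 to 2.53), Sparc (8.08 against 8.86 to 8.88) and Loxl3, a lysyl oxidase (-2.24 against -1.46 to -1.42). Untreated replicate 1 lay above them for Col5a3, a minor fibrillar collagen (4.69 against 2.34 to 2.56). Tunicamycin replicate 4 lay above them for Lum (-5.17 against -6.64 to -6.49), where no array was above background. The check was run in both wild-type treatments for every gene named by the size of its change or in every comparison. Chance singles out about 1 in 20 groups, so some of the 6 cases would arise by chance. Many of the genes were chosen by their changes on these same arrays. Replicates 1 and 2 come from another scan run than replicates 3 and 4.

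The other results listed here are differences between responses of 2 lines that passed limma's test of the difference itself, at an adjusted p under 0.05, given as log2 differences. Run-1 wild type responded lower than run-2 wild type for Lum (-8.16), Thbs2 (-3.43), Col4a2 (-3.07), Col4a1 (-2.91) and Loxl2 (-1.90). Atf4-/- responded higher than run-1 wild type for Lum (8.23), Col5a3 (4.84), Thbs2 (3.75), Col4a2 (3.38), Bmp1 (1.33) and Sparc (1.35). Perk-/- responded higher than run-2 wild type for Col11a1 (2.89), Col3a1 (2.65), Thbs1 (2.48), Col6a2 (1.75), Loxl3 (2.08), Loxl2 (1.00), Col1a1 (0.81), Col1a2 (1.07), Sparc (0.55), Serpinh1 (0.44) and P4ha1 (0.93), 7 of them collagens or other structural genes and 4 processing genes. eIF2α A/A responded higher than the mean of both wild types for Lum (3.66), Col3a1 (3.29), Thbs2 (2.85), Postn (2.42), Loxl2 (2.34), Loxl3 (1.1), Col1a1 (0.87), Sparc (0.51), P4ha1 (0.99), Plod2 (0.70) and Bmp1 (0.64). The 3 values for Lum are fitted to arrays on which it was mostly not above background and give no measured size, and Postn was not above background in treated run-1 wild type. Lum was tested only through the treated Atf4-/- arrays, so its call in the Atf4-/- comparison is no support. Several genes appear in more than 1 of these comparisons, and comparisons that use the same wild type share its arrays.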

How the results depend on the processing

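Counts of matrix genes called were taken again under each alternative, and the cause of each change was not tested. With 1 weight for all arrays, the counts were 1 higher in run-1 wild type, 11 lower in run-2 wild type, 1 higher and 1 lower in Perk-/-, 2 higher and 12 lower in Atf4-/-, 1 higher and 3 lower in eIF2α A/A and 4 lower with AP, and among differences 17 for Atf4-/-, 5 for Perk-/- and 12 for eIF2α A/A responses and 19 for untreated Atf4-/-. With each scan run fitted on its own they were 12 lower in run-1 wild type, 1 lower in Perk-/-, 0 higher and 2 lower in Atf4-/-, and 3 for the Atf4-/- difference of responses and 4 untreated. With 10 group means and a run term they were 1 higher and 1 lower in Perk-/- and 1, 5 and 9 for the Atf4-/-, Perk-/- and eIF2α A/A differences of responses. Without the filter on dim probes they were 1 higher and 1 lower in Perk-/- and 9 for its difference of responses. With normexp background they were 1 lower in Perk-/-, 9 lower in Atf4-/-, 10 for the wild types' difference and 13 for untreated Atf4-/-. The mean of all probes and the slide as a random block each left 0 higher in Atf4-/-.

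With the replicate number as a block the counts were 1 lower in Perk-/-, 0 higher in Atf4-/- and 5 for the Atf4-/- difference of responses, and the other counts stayed within 1.5 times the main ones. Same-numbered untreated and treated arrays correlated between -0.47 and 0.07 in their deviations, so the number was not taken as a pairing. In Perk-/- the crossed pairing by slide, chosen after seeing the data, gave 3 higher, 2 lower and 21 for the difference of responses. The scan day as a block in run 1, also chosen after seeing the data, gave 13 for untreated Atf4-/-.

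Without 1 array at a time, run-1 wild type gave 0 to 1 higher and 9 to 17 lower, run-2 wild type 1 higher and 13 to 15 lower, Perk-/- 1 to 5 higher and 1 to 3 lower, Atf4-/- 0 to 1 higher and 1 to 5 lower, eIF2α A/A 1 to 3 higher and 8 to 13 lower, and AP 1 to 2 higher and 23 to 25 lower. The differences of responses gave 2 to 5 (wild types), 3 to 13 (Atf4-/-), 8 to 18 (Perk-/-) and 14 to 24 (eIF2α A/A), and untreated levels 2 to 8 (Atf4-/-) and 26 to 30 (Perk-/-). A group left with 1 array is assumed to vary like the others. None of the 112 calls of named genes turned sign. Quantile normalization lost 5, normexp 8, the mean of all probes 8, no filter 13 and no weights 41. Where a setting covered fewer calls, single-run fits lost 25 of 96, the run term 24 of 84 and the replicate block 18 of 97. The deposited log2 values lost 0, but they are nearly the same values as the main ones and are no separate check. Lum, Postn, Eln and Tnc lie near background on many arrays, which limits their folds.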
